A study of Mus musculus with 18 samples.

Results

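Colon and spinal dorsal horn of the same kind of control mouse were set against each other, to describe which transcripts belong to each tissue and which are shared. The mice were wild type and belonged to the sham group of a bone cancer pain study, which had sham surgery and control IgG. Both tissues therefore carry the surgery and the antibody, and no untreated tissue was analysed here. The comparison used 3 sham colon libraries and 3 sham dorsal horn libraries of the 18 libraries in the series; the others came from mice with bone cancer given IgG or nivolumab. The labels number the replicates and do not say whether the colon and dorsal horn of 1 number come from 1 animal. Nor do they say whether the 3 libraries of a tissue come from separate animals. The p-values therefore set the tissue difference against the spread among these samples and cannot be extended to animals. Some of that spread may be technical. The protocol names spinal cord and colon as the tissues extracted, and the design text names the dorsal horn. The members are the 14770 genes listed in both count tables, of 15410 gene symbols in all. A further 217 genes were listed in the colon table alone and 423 in the dorsal horn table alone, and these are described separately, without a comparison.

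The colon wall is lined by a single layer of epithelium that is renewed from stem cells at the base of its crypts. Its main cells are absorptive colonocytes and mucus-secreting goblet cells, with rarer hormone-secreting and tuft cells, and beneath them lie fibroblasts, immune cells, smooth muscle and the ganglia of the enteric nervous system. The dorsal horn is the part of the spinal grey matter that receives sensory input, including pain signals, from dorsal root ganglion neurons. It holds excitatory neurons that release glutamate, inhibitory neurons that release GABA and glycine, astrocytes, microglia, and oligodendrocytes, which wrap axons in central myelin. In bulk tissue, fewer cells of a type and less RNA per cell cannot be told apart, and this holds for all levels below.

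Total counts were 30803957, 24438022 and 30415573 in the colon libraries and 25194494, 26094884 and 26891408 in those of the dorsal horn. Levels are given in CPM, counts divided by the library's total and scaled up by a fixed factor common to all libraries, and a count of 3 corresponded to between 0.0974 and 0.123 CPM in colon and between 0.112 and 0.119 CPM in dorsal horn. The 3 colon libraries varied more among themselves than the 3 dorsal horn libraries: the common biological coefficient of variation was 0.370 in colon and 0.164 in dorsal horn. Genes of the colon's muscle layer differed between the colon libraries. The summed level of Myh11, Acta2, Tagln, Des and Cnn1, which encode smooth muscle contractile and filament proteins, was 6329, 16813 and 1093 CPM in colon replicates 1, 2 and 3. Snap25, a synaptic protein of neurons, stood at 11.1, 29.0 and 1.97 CPM in the same libraries, in the same order. Car1, a carbonic anhydrase of colonocytes, ran the other way for replicate 2, at 9171, 346 and 3312 CPM. Among the dorsal horn libraries, replicate 3 stood apart in genes of dorsal root ganglion neurons: Avil had 83.3 CPM there, against 0.675 and 0.651 CPM in dorsal horn replicates 1 and 2, and Scn10a, the sodium channel Nav1.8, had 87.7 CPM against 0 and 0.0766 CPM. In genes of Schwann cells and peripheral myelin, dorsal horn replicate 3 did not stand apart. Their mean log2 level was 3.74, 4.68 and 4.68 in dorsal horn replicates 1, 2 and 3. For some of the results that these libraries bear on, the value without the library is given below.

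The labelled tissues were checked against defining markers. Cdx2, the homeobox factor that sets intestinal identity, had 251, 141 and 330 CPM in colon and no count in any dorsal horn library. Epcam and Krt20, an epithelial adhesion molecule and a keratin of differentiated colonocytes, averaged 1614 ± 279 and 1728 ± 542 CPM in colon (SD, n = 3) and stayed below 0.6 CPM in each dorsal horn library. In the other direction, Slc17a6, the vesicular glutamate transporter of spinal excitatory neurons, had 0.227, 0.818 and 0 CPM in colon and 166, 189 and 183 CPM in dorsal horn. Gfap, the astrocyte intermediate filament, had 7.34, 19.8 and 1.18 CPM in colon and 1607, 2014 and 791 CPM in dorsal horn. Muc2, another planned colon marker, is not analysed here. A gene that marks neighbouring tissue was also present in the dorsal horn libraries: Chat, of cholinergic neurons such as motor neurons, had 2.47, 3.19 and 1.28 CPM in colon and 49.4, 35.6 and 41.8 CPM in dorsal horn. The part that roots, ganglion or ventral tissue has in the values below was not tested.

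Most genes differed between the tissues. Of 13785 genes with enough counts to test, 5463 (39.6%) were higher in colon and 5065 (36.7%) were higher in dorsal horn at an adjusted p under 0.05, so that 76.4% were called in either direction (edgeR quasi-likelihood test, Benjamini-Hochberg adjustment over all genes tested). Calls with a fitted difference of at least 4-fold numbered 2202 (16.0%) towards colon and 2679 (19.4%) towards dorsal horn. These passed a test of no difference. A test against a 4-fold change (edgeR glmTreat) was passed by 1692 and 1960 genes. For 82.3% of the genes tested the 3 colon libraries did not overlap the 3 dorsal horn libraries. These shares are the background for every gene list below: a list in which about 4 of 10 members are higher in each tissue is not set apart from all genes. The genes at least 4-fold higher in colon took between 35.7% and 37.5% of the counts in colon libraries and between 2.23% and 2.35% of those in dorsal horn libraries. The genes at least 4-fold higher in dorsal horn took between 1.94% and 3.43% of the counts in colon libraries and between 41.9% and 42.5% of those in dorsal horn libraries. Across all genes tested the median log2 fold change, colon over dorsal horn, was 0.06.

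**Figure D1:**
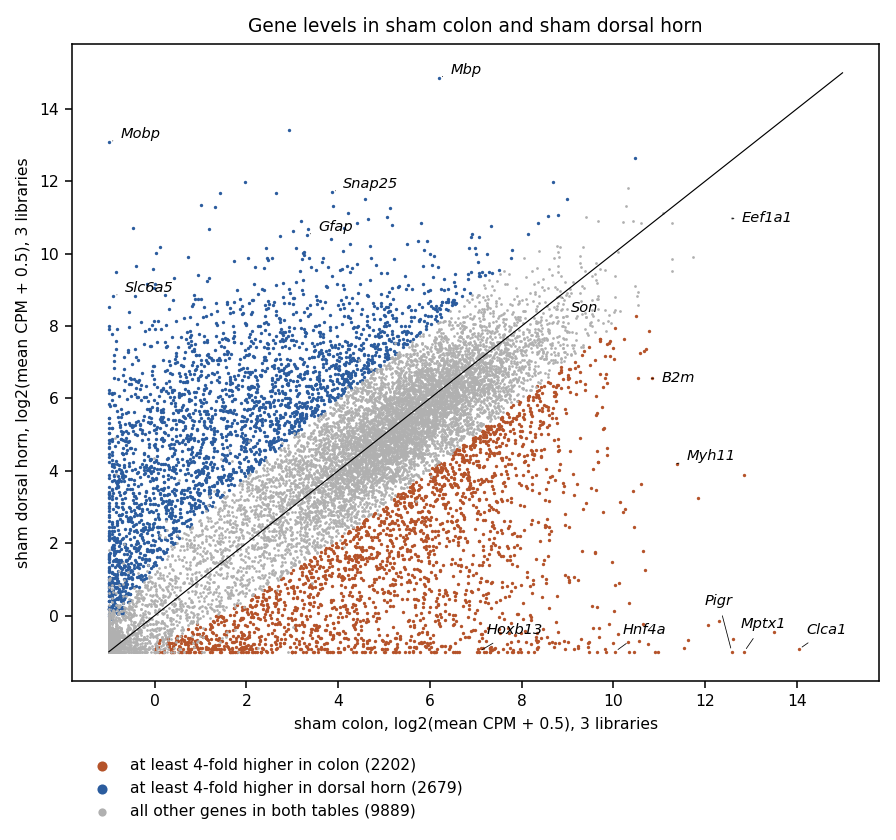
Mean level of each gene of both tables in sham colon (horizontal axis) and sham dorsal horn (vertical axis), both as log2(mean CPM + 0.5) over 3 libraries, with the line of equal levels. The 2202 genes at least 4-fold higher in colon lie below the line, down to the floor of the axis where Pigr, Mptx1 and Clca1 sit, and the 2679 at least 4-fold higher in dorsal horn lie above it, with Mobp at the left edge.

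A small number of genes were present in 1 tissue and absent, or nearly so, from the other. The rule was at least 1 CPM in each library of 1 tissue and at most 3 counts summed over the 3 libraries of the other. By this rule 174 genes were restricted to colon, 91 of them with no count in any dorsal horn library, and 118 were restricted to dorsal horn, 60 of them with no count in any colon library. All of these genes but 1 encode proteins by their annotated biotype. The colon genes were the more abundant: 45 of the 174 averaged at least 100 CPM, against 8 of the 118 dorsal horn genes, and their median level was 21.4 CPM in colon against 8.56 CPM in dorsal horn for the dorsal horn genes. Together the restricted genes took between 4.96% and 5.92% of the counts in colon, against between 1.14% and 1.28% in dorsal horn for the dorsal horn genes. With the limit of 3 counts kept, leaving out a library of the other tissue can only keep or raise these numbers. Without colon replicates 1, 2 and 3, the number restricted to dorsal horn was 179, 202 and 134. Without dorsal horn replicates 1, 2 and 3, the number restricted to colon was 207, 223 and 239.

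The 10 most abundant genes restricted to colon were genes of mucus, antibody transport and defence, with 1 transcription factor. Clca1, a protease secreted with goblet cell mucus, had 14463, 19374 and 16992 CPM in colon, against 2 counts in all in dorsal horn, a ratio of 655242 with a counting interval from 181389 to 5410550. Mptx1, a mucosal pentraxin, had 3387, 11773 and 7036 CPM in colon and no count in dorsal horn, which makes it at least 184385-fold higher in colon when the dorsal horn is set at the floor of 3 counts over its 3 libraries. Mptx1 was also the highest gene of the colon per length, at 9260 CPM per kb of exon, followed by Lypd8, a protein that keeps flagellated bacteria off the epithelium, at 9056 CPM per kb. Pigr, the receptor that carries IgA across the epithelium, had 6305, 5823 and 6298 CPM in colon and no count in dorsal horn, at least 160660-fold higher. Pigr varied least among the 3 colon libraries of these genes, and Mptx1 differed more than 3-fold between them. Muc13, a membrane mucin, had 3419, 2825 and 2720 CPM in colon and 3 counts in all in dorsal horn. Agr2, needed for mucin folding, averaged 2027 ± 361 CPM in colon (SD, n = 3), and Retnlb, a bactericidal peptide of goblet cells, averaged 1931 ± 487 CPM, with no count in dorsal horn for either. Reg4 stood at 875, 2435 and 862 CPM in colon, Zg16 at 1759, 1149 and 972 CPM, and Spink4 at 868, 1160 and 725 CPM, and all 3 had no count in dorsal horn. Hnf4a, a nuclear receptor of gut, liver and kidney epithelium, had 1000, 805 and 1342 CPM in colon and no count in dorsal horn, at least 27775-fold higher.

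The 10 most abundant genes restricted to dorsal horn included 3 of myelin and oligodendrocytes and genes of neurons and astrocytes, with the myelin gene Mobp first and the glycine transporter gene Slc6a5 after it. Mobp, a protein of central myelin, had no count in any colon library and 9195, 7811 and 9188 CPM in dorsal horn, at least 249271-fold higher there. Mog, on the outer face of myelin, was also without a count in colon, with 417, 401 and 296 CPM in dorsal horn, and Opalin, an oligodendrocyte membrane protein, had none in colon and 85.7, 87.6 and 50.1 CPM in dorsal horn. Both were lowest in dorsal horn replicate 3, the library with ganglion transcripts. Slc6a5, the glycine transporter that fills the terminals of glycinergic neurons, had 3 counts in all in colon and 451, 481 and 442 CPM in dorsal horn, a ratio of dorsal horn over colon of 13076 with a counting interval from 4474 to 63408. Hapln2, a link protein of the matrix at nodes of Ranvier, and Ntsr2, a neurotensin receptor of astrocytes, had no count in colon and averaged 258 ± 9.41 and 243 ± 4.05 CPM in dorsal horn (SD, n = 3). Sec14l5, Cacng2, Slc39a12 and Pvalb had 2 or 3 counts in all in colon and between 83.7 and 232 CPM in each dorsal horn library. Cacng2 encodes stargazin, which anchors AMPA receptors, and Pvalb encodes the calcium buffer parvalbumin.

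Stretches of DNA upstream of some of these genes are shown because their transcripts were among the most tissue-bound and because they hold short motifs of factors that are active in gut epithelium or in glia. Each is 110 bases from the RefSeq mouse promoter set (GRCm38.p6), from 150 to 41 bases before the first listed transcription start, read 5′ to 3′ on the gene's strand, with motif matches in capitals. Motifs were searched on both strands, and where a match adjoins another the capitals run on.
Mptx1, chr1:174330368-174330477, plus strand: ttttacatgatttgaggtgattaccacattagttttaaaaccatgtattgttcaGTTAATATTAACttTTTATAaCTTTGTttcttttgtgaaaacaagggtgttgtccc
Reg4, chr3:98222006-98222115, plus strand: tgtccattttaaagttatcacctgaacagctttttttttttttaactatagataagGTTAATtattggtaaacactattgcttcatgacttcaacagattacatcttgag
Agr2, chr12:35992775-35992884, plus strand: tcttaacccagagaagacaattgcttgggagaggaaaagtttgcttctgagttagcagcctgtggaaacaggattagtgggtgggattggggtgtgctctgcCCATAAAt
Mobp, chr9:120149592-120149701, plus strand: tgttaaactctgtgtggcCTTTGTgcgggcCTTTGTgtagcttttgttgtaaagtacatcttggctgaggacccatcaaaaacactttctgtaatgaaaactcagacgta
Opalin, chr19:41077154-41077263, minus strand: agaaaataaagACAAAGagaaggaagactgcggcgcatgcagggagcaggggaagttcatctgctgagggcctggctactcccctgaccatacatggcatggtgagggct

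In the Mptx1 window the letters GTTAAT, the core of binding sites for HNF1 factors, stood next to their own reverse complement ATTAAC, and the Reg4 window held GTTAAT once. The Mptx1 window also held TATAAA on the opposite strand and the SOX letters described next, as CTTTGT. The Agr2 window held TTTATNG, the core of CDX sites, on the opposite strand. The Mobp window held ACAAAG, the core of SOX sites, in 2 places on the opposite strand, and the Opalin window held it once. Of the 32851 windows of this length in the set, 2.82% hold GTTAAT, 3.93% hold TTTATNG, 7.45% hold ACAAAG and 4.56% hold TATAAA. A window was listed for 6 of the 10 named colon genes and for all 10 of the dorsal horn genes. The other colon windows, of Pigr, Muc13 and Hnf4a, held none of these motifs, nor of 2 further ones searched (CCGGAAG for ETS factors and GGGCGG for SP1), and among the other dorsal horn windows Pvalb held CCGGAAG. The windows printed were chosen because they hold matches, and a match in so short a window is a description of its letters only.

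The epithelial lists were almost wholly higher in colon. Of 24 tested genes of absorptive colonocytes, 22 were higher in colon and none in dorsal horn; of 24 genes of epithelial junctions and keratins and 24 gut and epithelial transcription factors, all were higher in colon. Lypd8 had 14277, 9747 and 10859 CPM in colon and 0.278, 0 and 0.409 CPM in dorsal horn. Ceacam1, an adhesion molecule of the brush border, differed by 8.99 ± 0.41 on the log2 scale (SE, adjusted p = 1.4e-05). Car1 differed between the colon libraries by more than 20-fold, as given above, and was nonetheless higher in every colon library than in any dorsal horn library, whose highest level was 0.707 CPM (log2 fold change 13.59 ± 1.85, adjusted p = 0.00094). Without colon replicate 1, its highest library, the log2 fold change was 12.36. Krt8, the keratin of simple epithelia, had 6286, 4964 and 7620 CPM in colon and 0.119, 0.192 and 0.112 CPM in dorsal horn, and Krt19 had 3033, 2543 and 3937 CPM in colon and 0, 0.115 and 0.260 CPM in dorsal horn. Cdh1, E-cadherin, had 1157, 994 and 1394 CPM in colon and 0.992, 3.26 and 16.3 CPM in dorsal horn; its highest dorsal horn value was in replicate 3, without which the log2 fold change was 9.11 in place of 7.43. Among the transcription factors, Elf3 had 846, 670 and 976 CPM in colon and at most 0.318 CPM in dorsal horn, and Klf4 differed by 6.22 ± 0.17 on the log2 scale (SE, adjusted p = 6e-06). Vdr, the vitamin D receptor, had 607, 425 and 551 CPM in colon and 6.27, 4.98 and 3.76 CPM in dorsal horn.

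Of 20 goblet cell and mucus genes, 19 were higher in colon. Fcgbp, a mucus protein that cross-links mucins, had 3773, 6303 and 5079 CPM in colon and 0.278, 0.690 and 0.260 CPM in dorsal horn. The exception was Bcas1, which had 143, 122 and 118 CPM in colon and 1142, 1072 and 834 CPM in dorsal horn (log2 fold change -2.99 ± 0.17, adjusted p = 2.9e-05) and is known in the central nervous system from newly myelinating oligodendrocytes. All 13 tested genes of mucosal defence were higher in colon, with a median log2 fold change of 12.09 as fitted and 11.81 with genes that have no count in a tissue set at the floor. Duox2, which makes hydrogen peroxide at the epithelial surface, had 722, 572 and 513 CPM in colon and 0, 0.192 and 0 CPM in dorsal horn.

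**Figure D2:**
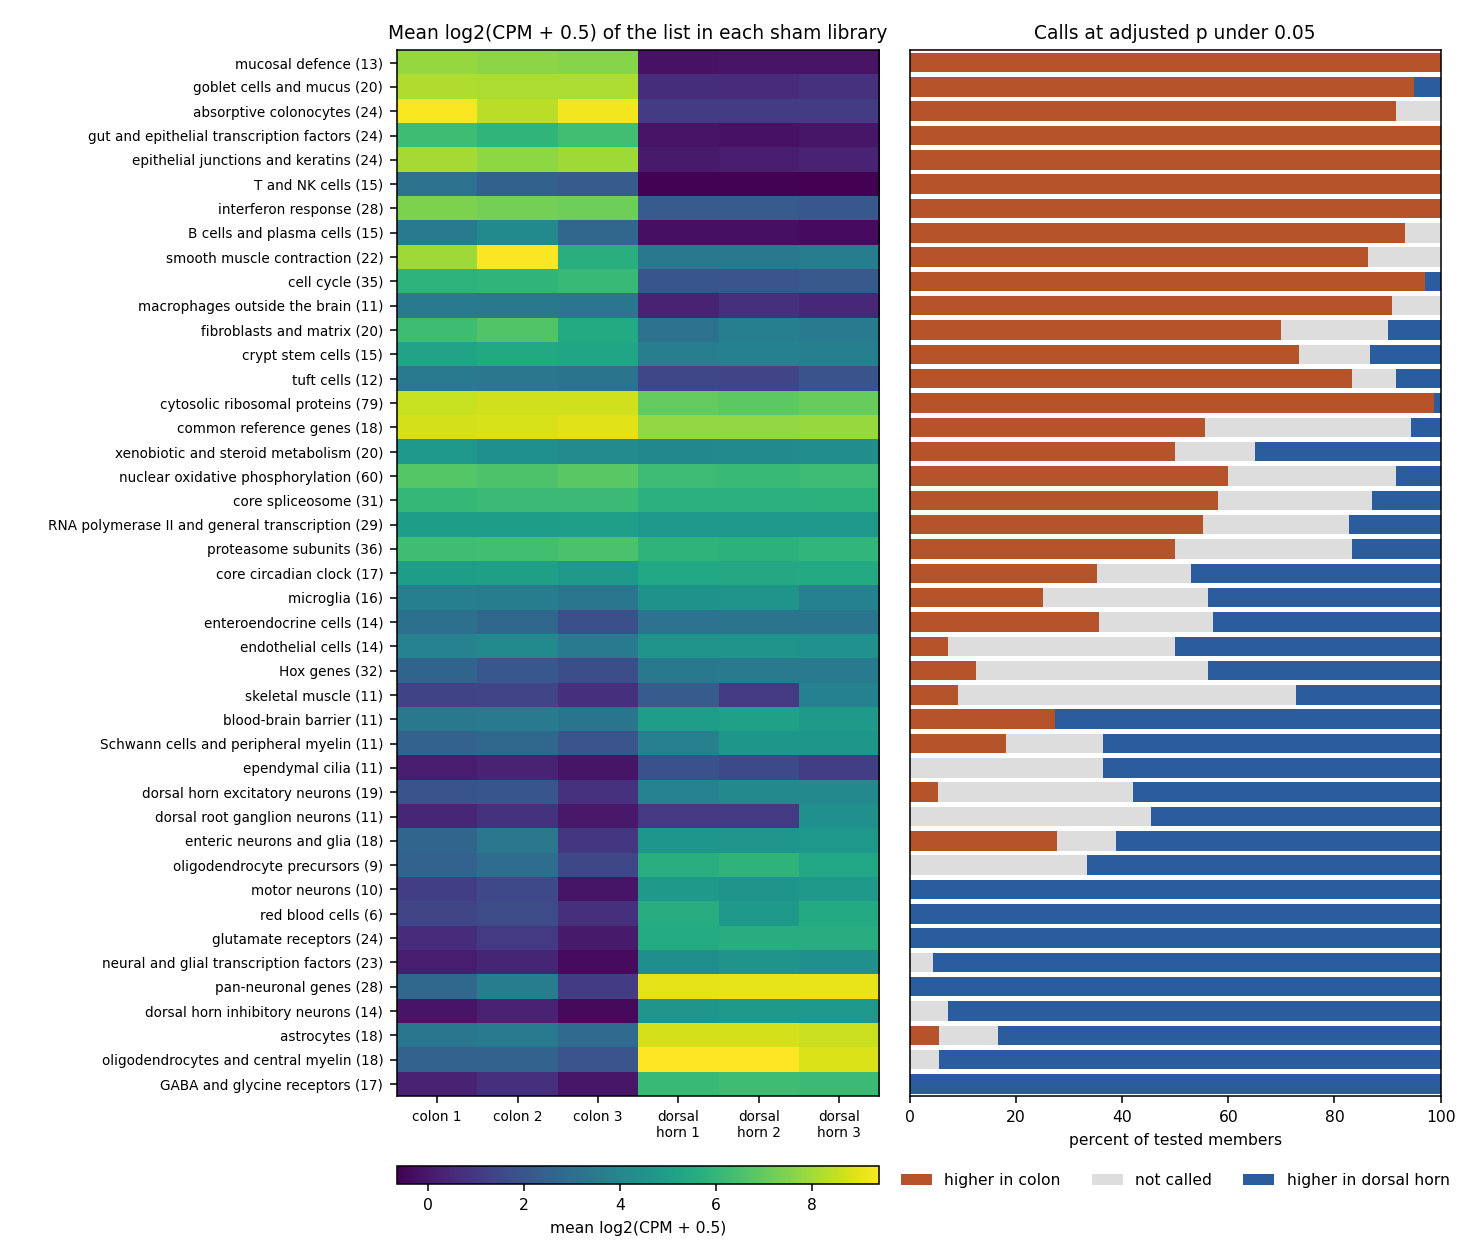
Each line is a gene list, with the number of its tested members in brackets, ordered by its median log2 fold change. The left panel colours the list's mean log2(CPM + 0.5) in each of the 3 colon and 3 dorsal horn libraries and the right panel gives the percent of tested members called higher in colon, not called, or higher in dorsal horn; mucosal defence is at 100% in colon at the top, and GABA and glycine receptors are at 100% in dorsal horn at the bottom.

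Genes of dividing cells were higher in colon. Of 35 cell cycle genes, 34 were higher in colon: Mki67, a protein of proliferating cells, had 360, 364 and 479 CPM in colon and 3.65, 2.45 and 7.51 CPM in dorsal horn (log2 fold change 6.46 ± 0.50, adjusted p = 9.9e-05), and Top2a, which untangles DNA before division, had 203, 203 and 256 CPM in colon and 1.27, 0.843 and 2.01 CPM in dorsal horn. Ccne1, cyclin E1, was called in the other direction, at 8.18, 10.97 and 10.8 CPM in colon and 19.0, 18.7 and 16.6 CPM in dorsal horn, and lost the call when the spread was estimated over all 18 libraries (adjusted p = 0.056). Of 15 crypt stem cell genes, 11 were higher in colon, among them Prom1, with 393, 169 and 354 CPM in colon and 20.1, 23.3 and 15.4 CPM in dorsal horn, and Cdca7, with 56.1, 73.8 and 78.9 CPM in colon and 2.02, 2.80 and 2.08 CPM in dorsal horn. Lgr5, the receptor by which crypt stem cells are usually recognised, was higher in dorsal horn: it had 7.11, 10.03 and 9.83 CPM in colon and 32.2, 31.0 and 34.3 CPM in dorsal horn, and the libraries did not overlap (log2 fold change -1.85 ± 0.17, adjusted p = 0.00015). Tnfrsf19, another gene of that list, was also higher in dorsal horn, with 3.02, 3.31 and 3.42 CPM in colon and 40.3, 39.6 and 29.3 CPM in dorsal horn.

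The lists of 2 rarer epithelial cell types differed in how they split between the tissues. Of 14 enteroendocrine genes, 5 were higher in colon and 6 in dorsal horn, a split not far from that of all genes. The hormone Pyy had 29.3, 48.6 and 21.7 CPM in colon and 2 counts in all in dorsal horn, and Tph1, which makes serotonin outside the brain, had 18.8, 7.61 and 4.93 CPM in colon and no count in dorsal horn, at least 278-fold higher in colon. The granule proteins Chga and Chgb, which endocrine cells and neurons both hold, were higher in dorsal horn. Chga had 56.3, 30.8 and 20.9 CPM in colon and 457, 410 and 413 CPM in dorsal horn (log2 fold change -3.57 ± 0.39, adjusted p = 0.00039). Of 12 tuft cell genes, 10 were higher in colon, among them the taste channel Trpm5, with 31.6, 24.1 and 28.0 CPM in colon and 1.35, 1.34 and 1.90 CPM in dorsal horn. Dclk1, a kinase used as a tuft cell marker in mouse gut and also expressed in neurons, had 40.2, 44.4 and 29.7 CPM in colon and 300, 310 and 289 CPM in dorsal horn (log2 fold change -2.98 ± 0.17, adjusted p = 2.9e-05). Avil, an actin regulator of tuft cells and of sensory neurons, had 22.7, 23.0 and 19.7 CPM in colon and 0.675, 0.651 and 83.3 CPM in dorsal horn. It was not called with all 6 libraries (adjusted p = 0.85) and was higher in colon without dorsal horn replicate 3 (log2 fold change 5.03, adjusted p = 0.00013).

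The connective and contractile layers separated the tissues as well, with a wide spread in colon. Of 22 smooth muscle genes, 19 were higher in colon and none in dorsal horn. Myh11, smooth muscle myosin, had 2250, 5511 and 280 CPM in colon and 20.2, 17.0 and 16.4 CPM in dorsal horn (log2 fold change 7.23 ± 1.20, adjusted p = 0.0022), and Acta2, smooth muscle actin, had 1329, 3115 and 263 CPM in colon and 13.4, 12.8 and 9.74 CPM in dorsal horn. Without colon replicate 2, which was highest, the log2 fold change of Myh11 was 6.14 and 18 of the list stayed higher in colon, and without dorsal horn replicates 1 or 3, 16 did. Of 20 fibroblast and matrix genes, 14 were higher in colon. Col3a1, the collagen of soft tissue, had 738, 1036 and 429 CPM in colon and 6.15, 21.1 and 6.06 CPM in dorsal horn. Adamdec1, a protease of gut fibroblasts and macrophages, went against the muscle order, at 605, 101 and 273 CPM in colon, with 0.159, 0 and 0 CPM in dorsal horn. Sparc, a matrix protein that glia also make, was higher in dorsal horn, at 364, 562 and 214 CPM in colon and 2046, 1734 and 2489 CPM in dorsal horn (adjusted p = 0.0017).

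Immune and interferon genes were higher in colon as groups. Of 15 B and plasma cell genes 14 were higher in colon, as were all 15 tested T and NK cell genes and 10 of 11 genes of macrophages outside the brain; none was higher in dorsal horn. Jchain, which joins IgA and IgM into polymers, had 935, 1181 and 1015 CPM in colon and 1.43, 0.920 and 1.56 CPM in dorsal horn (log2 fold change 9.64 ± 0.29, adjusted p = 6.7e-06). Gzma, a granule protease of cytotoxic lymphocytes, had 35.0, 13.95 and 12.2 CPM in colon and no count in dorsal horn, at least 544-fold higher. Cd74, the invariant chain of class II antigen presentation, had 1886, 1391 and 1568 CPM in colon and 1.59, 4.52 and 2.71 CPM in dorsal horn. All 28 tested interferon response genes were higher in colon, with a median log2 fold change of 5.84. Irf7, a transcription factor of the type I interferon response, had 820, 538 and 560 CPM in colon and 3.93, 3.03 and 1.82 CPM in dorsal horn (log2 fold change 7.77 ± 0.41, adjusted p = 2.6e-05). Oasl2 had 774, 595 and 573 CPM in colon and 7.30, 6.74 and 7.70 CPM in dorsal horn. B2m, the light chain of class I MHC molecules, had 1984, 1456 and 2041 CPM in colon and 89.3, 96.3 and 95.6 CPM in dorsal horn (log2 fold change 4.28 ± 0.19, adjusted p = 1.3e-05).

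Per length, Mbp, myelin basic protein, had 8.57 CPM per kb of exon in colon and 3521 CPM per kb in dorsal horn, where it was the highest gene. Fth1, the ferritin heavy chain, which stores iron, had 409 CPM per kb in colon and 1855 CPM per kb in dorsal horn. Of 18 oligodendrocyte and central myelin genes, 17 were higher in dorsal horn and none in colon, with a median log2 fold change of -8.17. Mbp had 77.1, 63.1 and 77.7 CPM in colon and 30794, 31554 and 27115 CPM in dorsal horn (log2 fold change -8.68 ± 0.26, adjusted p = 6.6e-06). Of 9 genes of oligodendrocyte precursors 6 were higher in dorsal horn, among them the transcription factor Olig1, with 5 counts in all in colon and 270, 265 and 194 CPM in dorsal horn.

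Astrocyte genes were higher in dorsal horn in 15 of 18 cases. Slc1a2, the glutamate transporter that clears synapses, had 3.02, 1.55 and 1.38 CPM in colon and 2648, 2593 and 2293 CPM in dorsal horn (log2 fold change -10.30 ± 0.44, adjusted p = 1.3e-05), and Aldoc, the brain form of aldolase, differed by -6.94 ± 0.21 on the log2 scale (SE, adjusted p = 6.7e-06). Glul, glutamine synthetase, had 329, 545 and 652 CPM in colon and 2908, 2719 and 3088 CPM in dorsal horn. Sox9, a transcription factor of astrocytes and of crypt cells, was higher in colon, at 56.0, 63.4 and 49.3 CPM, against 20.2, 19.3 and 21.98 CPM in dorsal horn (adjusted p = 0.00013). Aqp4, the water channel of astrocyte end-feet and of some gut epithelium, singled out after its values were seen, was abundant in both: it had 436, 654 and 1143 CPM in colon and 465, 561 and 239 CPM in dorsal horn, the ranges overlapped, and it was not called (adjusted p = 0.15).

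All 28 pan-neuronal genes were higher in dorsal horn, with a median log2 fold change of -6.23. Nefm, a neurofilament subunit, had 2.99, 7.12 and 0.164 CPM in colon and 4496, 3778 and 3908 CPM in dorsal horn (log2 fold change -10.22 ± 1.39, adjusted p = 0.00095). Snap25, whose colon values are given above, had 3263, 3348 and 3498 CPM in dorsal horn (log2 fold change -7.91 ± 1.11, adjusted p = 0.0011). Without colon replicate 2 the log2 fold change was -11.33 for Nefm and -9.01 for Snap25. In colon the highest value of both was in replicate 2 and the lowest in replicate 3, the same order as for smooth muscle. The list's mean log2(CPM + 0.5) was 2.69, 3.63 and 1.13 in the colon libraries and 8.98, 9.02 and 9.07 in those of the dorsal horn.

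The transmitter genes of the dorsal horn followed the same direction. Of 14 tested inhibitory neuron genes, 13 were higher in dorsal horn. Gad1, which makes GABA, had 0.130, 0.368 and 0 CPM in colon and 146, 168 and 155 CPM in dorsal horn (log2 fold change -9.94 ± 0.64, adjusted p = 5.1e-05). Gad2, the other GABA-making enzyme, was not so near to 0 in colon, at 2.73, 4.58 and 6.25 CPM, against 86.6, 105 and 103 CPM in dorsal horn. Of 19 excitatory neuron genes, 11 were higher in dorsal horn, 7 were not called, and Phox2a was called higher in colon, at 0.941, 1.64 and 0.395 CPM against at most 0.230 CPM in dorsal horn, a call lost without colon replicate 2 (adjusted p = 0.052) and without any 1 of the dorsal horn libraries; without colon replicate 3, 3 genes of the list were called higher in colon. Calb2, calretinin, which enteric neurons also make, had 14.2, 24.1 and 2.40 CPM in colon and 345, 305 and 305 CPM in dorsal horn. Reln, the secreted protein reelin, had 11.5, 14.1 and 7.63 CPM in colon and 91.7, 113 and 72.0 CPM in dorsal horn.

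All 24 glutamate receptor genes and all 17 GABA and glycine receptor genes tested were higher in dorsal horn. Grin1, the obligatory NMDA receptor subunit, had 3.83, 6.18 and 1.68 CPM in colon and 376, 427 and 461 CPM in dorsal horn (log2 fold change -6.76 ± 0.54, adjusted p = 0.00011), and Gria2, an AMPA receptor subunit, had 1.299, 3.19 and 0.296 CPM in colon and 192, 222 and 224 CPM in dorsal horn. Slc12a5, the chloride exporter that makes GABA and glycine inhibitory and that the list carries beside the receptors, had 0.974, 1.02 and 0.526 CPM in colon and 634, 660 and 653 CPM in dorsal horn. Gabbr1, a subunit of the metabotropic GABA receptor, was the most shared of those named, at 43.6, 64.8 and 21.96 CPM in colon and 661, 681 and 669 CPM in dorsal horn (log2 fold change -3.95 ± 0.42, adjusted p = 0.00034). Of 23 neural and glial transcription factors 22 were higher in dorsal horn, among them Scrt1, with 0.584, 0.655 and 0 CPM in colon and 249, 248 and 231 CPM in dorsal horn. Sox10, a factor of oligodendrocytes and of enteric glia, had 5.26, 8.96 and 0.789 CPM in colon and 113, 139 and 89.3 CPM in dorsal horn. All 10 motor neuron genes were higher in dorsal horn, against a count of 6 without colon replicate 1.

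The microglia, endothelial and blood-brain barrier lists each had members called higher in either tissue. Of 16 microglia genes, 4 were higher in colon, 7 in dorsal horn and 5 were not called. The 3 chains of complement C1q, made by macrophages and microglia, summed to 157, 153 and 143 CPM in colon and 109, 112 and 109 CPM in dorsal horn, and no library of 1 tissue overlapped the other. C1qa had 55.1, 55.8 and 55.7 CPM in colon and 37.7, 39.4 and 42.5 CPM in dorsal horn (log2 fold change 0.48 ± 0.09, adjusted p = 0.0027), and this call, like those of C1qb and C1qc, was lost when all 18 libraries set the spread (adjusted p = 0.32 for C1qa). In that fit 1 microglia gene was called higher in colon. Csf1r, the receptor that keeps macrophages and microglia alive, was higher in dorsal horn, at 48.3, 40.9 and 30.5 CPM in colon and 89.0, 96.3 and 63.3 CPM in dorsal horn. P2ry12, which sets microglia apart from most macrophages, had 2.73, 1.19 and 0.953 CPM in colon and 19.1, 23.2 and 7.92 CPM in dorsal horn (adjusted p = 0.003). Of 14 endothelial genes 1 was higher in colon and 7 in dorsal horn. That 1 was Plvap, a protein of the diaphragms of leaky vessels, with 44.1, 44.2 and 42.8 CPM in colon and 13.1, 11.8 and 16.0 CPM in dorsal horn (log2 fold change 1.68 ± 0.14, adjusted p = 0.00011). Of 11 blood-brain barrier genes 8 were higher in dorsal horn, such as the lipid transporter Mfsd2a, with 10.6, 11.1 and 12.9 CPM in colon and 88.5, 91.2 and 105 CPM in dorsal horn. The others, the lactate transporter Slc16a1, the tight junction protein Ocln and the efflux pump Abcg2, were higher in colon, which also uses them in its epithelium.

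Genes of peripheral nerves, the enteric nervous system, blood, cilia and skeletal muscle are given next. What each dissection held was not tested. Of 18 enteric neuron and glia genes 5 were higher in colon and 11 in dorsal horn, where many of the same genes serve central neurons and glia. Vip, a relaxing peptide of enteric neurons, had 25.4, 48.7 and 7.40 CPM in colon and 1.83, 1.34 and 1.38 CPM in dorsal horn (adjusted p = 0.0028). Hand2, a factor of the enteric lineage, had 8.54, 30.5 and 1.94 CPM in colon and no count in dorsal horn, at least 325-fold higher. Ret, the receptor for GDNF ligands, had 11.7, 25.3 and 4.34 CPM in colon and 179, 164 and 195 CPM in dorsal horn. The number higher in colon was 3 without colon replicate 2, dorsal horn replicate 2 or dorsal horn replicate 3. Of 11 Schwann cell genes 7 were higher in dorsal horn and 2 in colon. By the list means given above, dorsal horn replicates 2 and 3 were alike in these genes and replicate 1 was lower. Of 11 tested dorsal root ganglion genes 6 were higher in dorsal horn, 3 of the list without colon replicate 1 and 5 without dorsal horn replicate 3, and none was higher in colon, against 2 without dorsal horn replicate 3. Calca, which encodes the sensory peptide CGRP and is also made by motor neurons, had 0.0974, 0.123 and 0.296 CPM in colon and 35.4, 27.3 and 83.9 CPM in dorsal horn (log2 fold change -8.09 ± 0.72, adjusted p = 0.00016, and -7.45 without dorsal horn replicate 3), while limma with weights per tissue gave an adjusted p of 0.071. All 6 red blood cell genes were higher in dorsal horn: 3 globin genes summed to 40.8, 40.2 and 18.1 CPM in colon and 1197, 702 and 959 CPM in dorsal horn, although 2 of these, the alpha globins Hba-a1 and Hba-a2, are near-identical copies whose split is uncertain. Of 11 ependymal cilia genes 7 were higher in dorsal horn, and of 11 skeletal muscle genes 1 was higher in colon and 3 in dorsal horn, 7 without dorsal horn replicate 2.

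Of 20 tested genes for metabolism of foreign compounds and sterols, 10 were higher in colon and 7 in dorsal horn. The list has 36 members, and 14 of them, among them Cyp, Ces and Ugt genes, were in neither table. The split therefore holds for the genes tested only. Mgst3, a glutathione transferase, had 474, 349 and 486 CPM in colon and 81.1, 86.9 and 78.1 CPM in dorsal horn. Nat8l, which makes N-acetylaspartate in neurons and stands in this list beside detoxifying enzymes, had 0.877, 2.37 and 0.230 CPM in colon and 999, 951 and 955 CPM in dorsal horn. Cyp46a1, the enzyme by which neurons turn over cholesterol, had 0.747, 1.27 and 0.427 CPM in colon and 61.0, 61.4 and 62.6 CPM in dorsal horn. Of 17 core clock genes 6 were higher in colon and 8 in dorsal horn. Arntl, the activator BMAL1, had 38.9, 37.9 and 35.3 CPM in colon and 14.9, 17.3 and 16.2 CPM in dorsal horn (log2 fold change 1.21 ± 0.11, adjusted p = 0.00015), while Tef, a clock output factor, had 70.1, 67.0 and 73.1 CPM in colon and 288, 274 and 363 CPM in dorsal horn (log2 fold change -2.14 ± 0.14, adjusted p = 3.9e-05). The labels give no time of day at which the tissues were taken.

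Hox genes record the position of a tissue along the body axis, in 4 clusters whose numbers run from front to back. Of 32 tested, 4 were higher in colon, 14 in dorsal horn and 14 were not called. The genes of the C cluster and the last genes of the B and D clusters differed in opposite directions. The 7 Hoxc genes tested, Hoxc4 to Hoxc11, were all higher in dorsal horn and summed to 4.38, 1.27 and 0.197 CPM in colon, against 194, 213 and 201 CPM in dorsal horn. Hoxc10 had 0.357, 0 and 0 CPM in colon and 91.4, 99.3 and 108 CPM in dorsal horn (log2 fold change -9.56 ± 0.82, adjusted p = 0.00014). Hoxb13 had 94.5, 207 and 98.5 CPM in colon and no count in dorsal horn, at least 3335-fold higher. Hoxd13 was also higher in colon, at 4.25, 38.0 and 0.986 CPM against 0.119, 0.115 and 0.223 CPM in dorsal horn (adjusted p = 0.013), and without colon replicate 2, its highest library, the log2 fold change was 4.06 in place of 6.51. Hoxa13, listed in the colon table alone, had 18.8, 48.6 and 59.5 CPM there. Hoxc12 and Hoxc13 were listed in the dorsal horn table alone. In the other clusters the calls were mixed: Hoxa4, Hoxb8 and 5 Hoxd genes (Hoxd1, Hoxd3, Hoxd8, Hoxd9 and Hoxd10) were higher in dorsal horn, and Hoxa3 and Hoxa11 were higher in colon, Hoxa11 with a call lost without colon replicates 2 or 3 or dorsal horn replicates 2 or 3. Hoxa9 and Hoxb9, named as examples of the 14 genes not called, had libraries that overlapped. Hoxa9 had 23.2, 68.2 and 104 CPM in colon and 52.6, 62.6 and 55.4 CPM in dorsal horn, and Hoxb9 had 99.3, 60.6 and 75.9 CPM in colon and 80.8, 113 and 82.3 CPM in dorsal horn. The colon libraries differed among themselves in Hox level. Hoxb8 had 24.3, 1.60 and 8.61 CPM in colon, against 140, 182 and 144 CPM in dorsal horn, and was highest in the colon library where Hoxa9 and Hoxa13 were lowest.

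**Figure D3:**
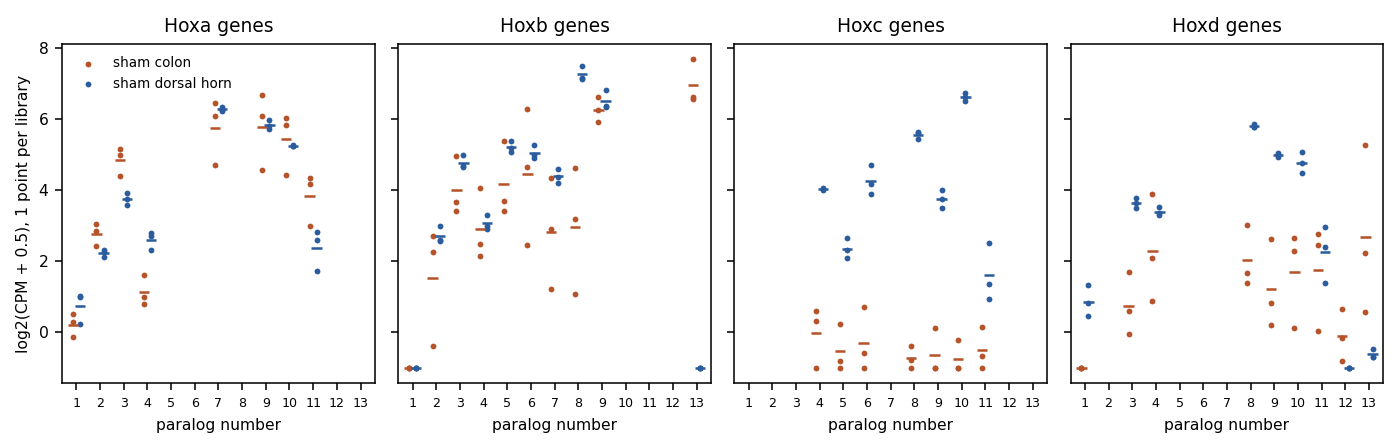
Level of each Hox gene of both tables as log2(CPM + 0.5), by paralog number within its cluster, with sham colon to the left of sham dorsal horn at each number; points are single libraries and bars are their means. All Hoxc genes stand higher in dorsal horn, and Hoxb13 and Hoxd13 stand higher in colon.

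Related genes that serve a common task in different cells were compared in pairs, the first known mainly from epithelia or from most cells and the second from neurons or glia. Of 36 pairs, 33 had both genes tested. In 24 the first was higher in colon and the second in dorsal horn, in 5 both were higher in dorsal horn, in the other 4 the first was not called, and none ran the other way; since the pairs were made from known roles, the counts describe them and no more. Among the most abundant pairs were keratin Krt8 with Gfap, the sodium pump beta subunits Atp1b1 with Atp1b2, the kinesins Kif5b with Kif5a and the lactate dehydrogenases Ldha with Ldhb. Atp1b1 had 1296, 1176 and 1696 CPM in colon and 1900, 1880 and 1977 CPM in dorsal horn, and Atp1b2 had 8.64, 13.9 and 3.19 CPM in colon and 2047, 2133 and 1561 CPM in dorsal horn. The call of Atp1b1 (log2 fold change -0.47 ± 0.17, adjusted p = 0.046) was among the 5 pairs with both higher in dorsal horn, and it was lost with TMM factors (adjusted p = 0.061), with DESeq2 size factors (0.052), with the replicate block (0.068) and when any 1 library but colon replicate 3 was left out (between 0.093 and 0.13). Ldha had 1415, 1208 and 1816 CPM in colon and 91.6, 89.3 and 103 CPM in dorsal horn (log2 fold change 3.97 ± 0.20, adjusted p = 2e-05), while Ldhb had 15.6, 30.0 and 7.69 CPM in colon and 820, 777 and 826 CPM in dorsal horn (log2 fold change -5.51 ± 0.56, adjusted p = 0.00028). Kif5b, the form of most cells, was itself higher in dorsal horn, at 211, 189 and 230 CPM in colon and 772, 659 and 656 CPM in dorsal horn. The claudins, singled out after their values were seen, gave the widest contrast of the 33 pairs: Cldn7, of epithelial tight junctions, had 729, 597 and 791 CPM in colon and 0.0794, 0.0766 and 0.149 CPM in dorsal horn, and Cldn11, of the myelin sheath, had 0, 0.164 and 0 CPM in colon and 767, 793 and 590 CPM in dorsal horn. The chloride transporter Slc12a2, likewise singled out, had 366, 355 and 393 CPM in colon and 316, 325 and 216 CPM in dorsal horn and was not called (adjusted p = 0.094), while its neuronal partner Slc12a5 was nearly confined to dorsal horn by the values given above.

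**Figure D4:**
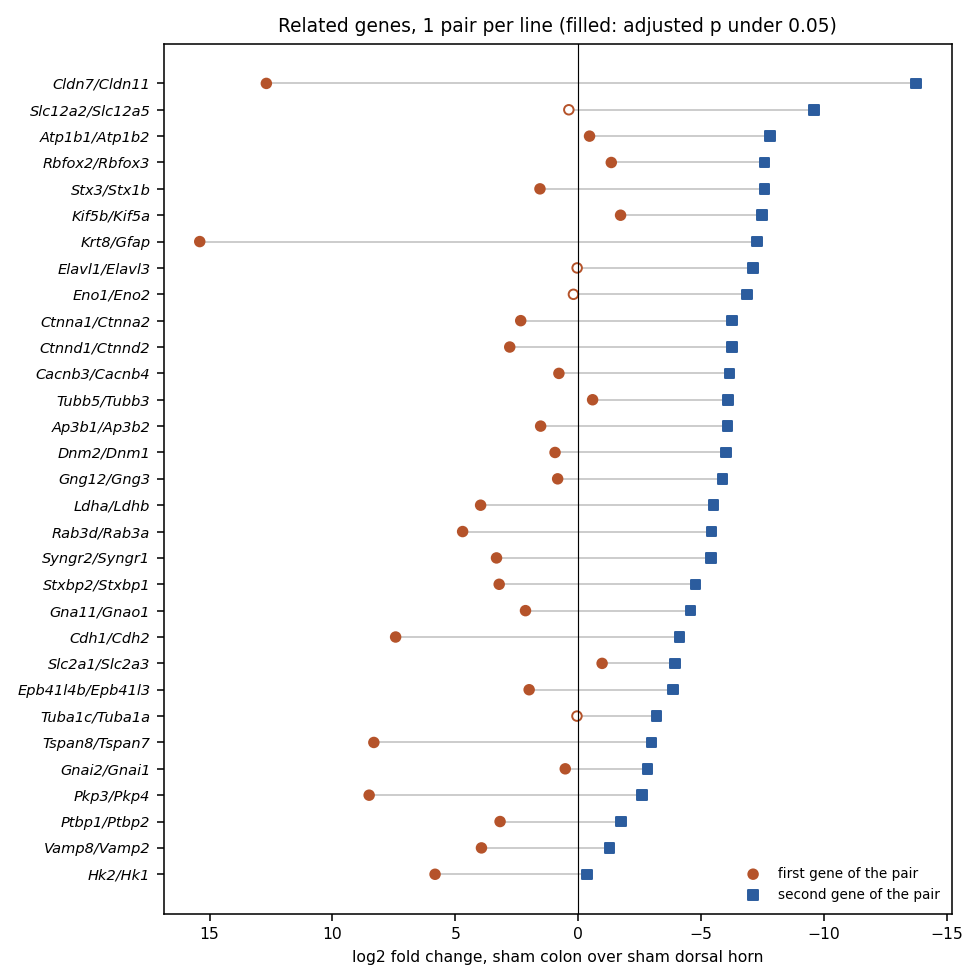
Log2 fold change, colon over dorsal horn, of both genes in each of 31 pairs, with values higher in colon to the left; circles are the first gene and squares the second, filled where the adjusted p was under 0.05. All 31 squares lie on the dorsal horn side, and 22 circles lie on the colon side and are filled.

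Shared transcripts were also numerous. At least 1 CPM in all 6 libraries was reached by 10620 of the 14770 genes. A similar level, meaning a 95% interval of the fold change within 2-fold in either direction, was found for 3733 of the genes tested (27.1%), and 1666 of these were also called, with small differences. They took between 26.9% and 27.7% of the counts in colon and between 26.2% and 26.6% in dorsal horn. Of those with at least 100 CPM in both tissues, the 10 nearest to equal were Slc25a11, Psme3, Prrc2a, Rrp7a, Utrn, Ndufv1, Ddah1, Psmb6, Ndufs1 and Son, among which are 2 subunits of respiratory complex I, a proteasome subunit and a proteasome activator. Son, a splicing cofactor of nuclear speckles, had 480, 457 and 416 CPM in colon and 446, 442 and 469 CPM in dorsal horn, and Ndufv1 had 178, 152 and 195 CPM in colon and 178, 171 and 177 CPM in dorsal horn. A further 1190 genes were neither called nor at a similar level.

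Machinery used by all cells was mostly near balance, with a tilt to colon. Of 31 spliceosome genes 24 were at a similar level, of 36 proteasome genes 26, of 29 genes of RNA polymerase II and general transcription 18 and of 60 oxidative phosphorylation genes 35. In the same order, 18, 18, 16 and 36 genes were called higher in colon. The calls higher in dorsal horn numbered 4, 6, 5 and 5. Among all genes tested 39.6% and 36.7% were called in these directions. Among the proteasome genes tested the 3 interferon-inducible catalytic subunits differed most. Psmb8 had 206, 185 and 232 CPM in colon and 3.41, 3.30 and 2.75 CPM in dorsal horn (log2 fold change 6.04 ± 0.16, adjusted p = 5.8e-06), Psmb9 differed by 6.60 ± 0.14 and Psmb10 by 3.26 ± 0.13 on the log2 scale, while Psmb5, the standard counterpart of Psmb8, differed by 0.28 ± 0.10. The count of proteasome genes called higher in colon was 18, and 11 without dorsal horn replicate 1 or replicate 2. Psmc5, a proteasome ATPase, was higher in dorsal horn, at 107, 117 and 127 CPM in colon and 319, 272 and 313 CPM in dorsal horn. Cytosolic ribosomal proteins were not balanced: 78 of 79 were higher in colon, with a median log2 fold change of 1.63, and none was at a similar level. Rplp0 had 1587, 1719 and 1950 CPM in colon and 227, 225 and 245 CPM in dorsal horn (log2 fold change 2.91 ± 0.14, adjusted p = 1.6e-05). The exception, Rpl3l, is a form of striated muscle and was near the floor, at 0.162, 0.246 and 0.0329 CPM in colon and 0.953, 0.805 and 1.302 CPM in dorsal horn.

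Genes often used as references for normalisation followed the same tilt. Of 18 tested, 10 were higher in colon, Tubb5 was higher in dorsal horn, 7 were not called and 8 were at a similar level. The call of Tubb5 was lost when all 18 libraries set the spread (adjusted p = 0.11). Some of these genes, such as B2m and Rplp0, were also counted in lists above. Actb, beta-actin, had 3062, 3673 and 3506 CPM in colon and 958, 982 and 959 CPM in dorsal horn (log2 fold change 1.82 ± 0.14, adjusted p = 7.2e-05). Eef1a1, an elongation factor, was among the 10 highest genes per length in both tissues and had 5837, 6145 and 6510 CPM in colon and 1978, 2041 and 2029 CPM in dorsal horn (log2 fold change 1.61 ± 0.14, adjusted p = 0.00012). Ppia, cyclophilin A, was not called, at 740, 837 and 944 CPM in colon and 763, 690 and 824 CPM in dorsal horn (log2 fold change 0.15 ± 0.14, adjusted p = 0.37), nor was Tbp, the TATA-binding protein, at 36.1, 37.7 and 32.5 CPM in colon and 36.8, 38.1 and 51.2 CPM in dorsal horn; both were singled out after their values were seen.

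Genes listed in 1 table alone included known markers of each tissue. A gene missing from a table is not the same as a gene measured at 0, so no fold change or test was computed. Of the 217 genes of the colon table alone, 38 had at least 1 CPM in each sham colon library and 51 had no count in any of them. Cdx1, a homeobox factor of the gut, led them with 317, 318 and 388 CPM, followed by Fabp2, the intestinal fatty acid binding protein, with 328, 161 and 412 CPM, and Mettl7b, with 326, 112 and 258 CPM. Rnf186 averaged 137 ± 35.1 CPM and the carboxylesterase Ces2a averaged 125 ± 48.0 CPM (SD, n = 3). Of the 423 genes of the dorsal horn table alone, 51 had at least 1 CPM in each sham dorsal horn library and 124 had no count in any of them. Lamp5 led them with 327, 312 and 317 CPM, followed by Slc32a1, the transporter that loads GABA and glycine into vesicles, with 157, 166 and 157 CPM. Klk6, a protease of oligodendrocytes, had 158, 176 and 63.8 CPM, lowest in replicate 3. Slco1a4, an organic anion transporter of brain vessels, averaged 93.3 ± 2.20 CPM, and Olig2, which sets the oligodendrocyte lineage, averaged 73.2 ± 9.33 CPM.

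The same contrast was fitted in libraries that took no part in the calls above, from mice with bone cancer given IgG (3 per tissue) and from mice with bone cancer given nivolumab (3 per tissue). Of all genes called higher in sham colon, 3972 of 5356 tested (74.2%) were called higher in colon in the cancer libraries, with 7 called the other way, and 4563 of 5407 (84.4%) in the nivolumab libraries, with 15 called the other way. Of all genes called higher in sham dorsal horn, 4465 of 5028 (88.8%) and 4548 of 5037 (90.3%) were called higher in dorsal horn in the cancer and the nivolumab libraries, with 1 and 10 called the other way. Of the genes at least 4-fold higher in sham colon, 1976 of 2104 tested (93.9%) were called higher in colon in the cancer libraries and 2068 of 2150 (96.2%) in the nivolumab libraries, against 30.7% and 36.3% of all genes tested there. Of the genes at least 4-fold higher in sham dorsal horn, 2520 of 2646 (95.2%) were called higher in dorsal horn in the cancer libraries and 2608 of 2651 (98.4%) in the nivolumab libraries, against 36.1% and 38.5% of all genes tested. Of the 174 colon-restricted genes, 160 passed the count filter in the cancer libraries and 166 in the nivolumab libraries. All 160 and 165 of the 166 were called higher in colon. Of the 118 dorsal horn genes, 116 and 117 were called higher in dorsal horn. A gene near 0 in 1 tissue passes the filter only through the other tissue, so these calls were largely fixed in advance. The same holds for genes of the 4-fold classes that are near 0 in 1 tissue. Of the genes at a similar level in sham tissue, 73.1% met that rule in the cancer libraries, against 23.7% of all genes tested there, and 75.6% met it in the nivolumab libraries, against 24.9%. These libraries share the tissues, the tables and the counting with the sham libraries, so they repeat the contrast over other samples and not over another procedure.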

How the data were processed

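Gene counts came from 1 table per tissue, which the authors deposited as raw counts per gene symbol for 9 libraries each, and the 2 tables list different sets of genes. Per the labels' protocols, RNA was extracted with TRIzol and sequenced as cDNA libraries. The submitters' processing notes name FastQC 0.11.5, Trimmomatic, HISAT2, StringTie and GRCm38. No source used here gives the counting tool, its strand setting or its annotation, so reads of overlapping genes cannot be told apart. Tissue, table and dissection cannot be told apart either.

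The 6 sham libraries were fitted for genes in both tables with edgeR 4.0.16 (R 4.3.3): library size set to the total count with no composition factor, low counts removed with filterByExpr, robust quasi-likelihood dispersion, tissue as the only term, and Benjamini-Hochberg adjustment over all 13785 genes tested at 0.05. Fold changes are colon over dorsal horn. The fit was also run on simulated data. There few genes were changed and both tissues had dorsal horn levels and a common spread, unlike here. It therefore does not show how the fit performs on these data. A fold against a tissue with no count uses a floor of 3 counts over its 3 libraries; for 1 to 3 counts the interval is the exact 95% one and covers counting error only. Lengths per kb are union exons of GENCODE M21, which held 15408 of the 15410 symbols. limma 3.58.1 and DESeq2 1.42.0 gave alternatives.

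Named genes are the 10 highest per length in each tissue, the 10 most abundant restricted to each, the 10 nearest to equal at 100 CPM or more, up to 4 per list plus any against its list's direction, the 5 highest in 1 table only, and up to 6 pairs, less those not reported; other genes, such as tissue markers, were added after their values were seen. The members and the 43 lists were chosen with earlier results of these data known, so their counts describe them. Fewer than 80% of the restricted genes had a promoter window, so motif shares were not compared between classes. Replicate numbers were not used to pair the tissues in this fit. Some genes and 2 of the related pairs are not reported here by name.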

Additional observations from a re-analysis of the deposited data

How the results depend on the processing

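The counts of genes higher in colon, higher in dorsal horn and at least 4-fold higher in either stayed within 1.5 times their values under all 15 alternative fits, which changed the scaling, the filter, the tool, the libraries or the design. Between 89.4% and 99.98% of the 10528 calls kept their direction there and none was called in the opposite direction; calls higher in colon were between 49.6% and 52.4% of calls. DESeq2 size factors shifted the median log2 fold change by -0.06. With the replicate number as a block, 4929 genes were higher in colon and 4680 in dorsal horn, and 9552 calls kept their direction. Deviations from the tissue mean correlated between -0.06 and 0.01 for same-numbered samples and between -0.07 and 0.09 for others. Samples of 1 animal need not deviate alike in unlike organs, so this cannot show whether the numbers mark pairs. The numbers were not taken as pairs because the labels do not say that they are. Of 255 named genes called, 41 lost the call under at least 1 alternative. A similar level within 1.5-fold held for 1562 genes. Genes restricted to colon numbered 112 at 5 CPM, 91 with no count allowed in dorsal horn and 308 with 10 counts allowed. Those restricted to dorsal horn numbered 64, 60 and 256 under the same changes. Leaving out 1 library can only keep or raise the restricted numbers. They were then between 176 and 239 for colon and between 124 and 202 for dorsal horn. Of genes in the dorsal horn table only, 19 reached 5 CPM in each library. These shifts followed a changed threshold or a library left out, and their cause was not tested. At these depths a gene below about 0.12 CPM in a library rests on 3 counts or fewer. With 3 libraries per tissue and a wide spread in colon, a gene not called is not shown to be equal.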
